A study of Mus musculus with 20 samples.

Results

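Runx1, Runx2, Runx3, Cbfb, Etv1, Etv4, Etv5, Maf and Shox2 encode transcription factors, or in the case of Cbfb a transcription factor subunit, that give dorsal root ganglion (DRG) sensory neurons their subtype. The rule names these 9 genes from their known roles and uses no measured value, although earlier results of these data were known when it was written. Each gene was found by its mouse symbol once in a count table of 78258 genes. All 9 passed the filter on low counts that 28564 genes passed. RNA was sequenced from lumbar ganglia (levels 4 to 6) of 10 adult male mice, 1 day after the sciatic nerve was cut on 1 side. The ganglia of the cut (ipsilateral) and the other (contralateral) side were sequenced apart, so 2 genotypes and 2 sides made 4 groups of 5 libraries.

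The conditional knockout (cKO) mice were Ahr fl/fl Thy1CRE-ERT2/EYFP: the gene for the aryl hydrocarbon receptor (AhR) was floxed on both chromosomes, and the Thy1 promoter, which is active in neurons and does not reach every cell of a ganglion, drove Cre fused to a tamoxifen-responsive domain together with EYFP, a fluorescent reporter. Control mice were Ahr f/f or f/+, 1 label (FF) covering both, although the sample titles call them wildtype. The library names hold cre for the cKO mice alone, and a part of Cre itself in the genotype comparisons was not tested. All mice, controls included, were given tamoxifen (100 mg/kg, once on each of 5 days) when 17 weeks old, and the nerve was cut 4 weeks later. The uninjured reference is the other side of the same lesioned mouse, and no ganglia of unlesioned mice were analysed here. Whole ganglia were used, so fewer cells of a type and less RNA per cell cannot be told apart in any value below.

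Library totals ran from 76.2 to 118.5 M counts (M, mega). Markers of sensory neurons were abundant in every library: 13 genes summed to between 12716.8 and 15461.6 counts per M (CPM), and none was at 0. Ahr, the targeted gene, reached 24.2 ± 2.1 CPM in the contralateral libraries of controls against 20.4 ± 0.536 CPM in those of cKO mice (SD, n = 5), with no overlap, but its edgeR log2 fold change of -0.25 had an adjusted p of 0.103. It was called with DESeq2 (-0.24, adjusted p 0.022) and without mouse 99 (-0.25, adjusted p 0.0353). On the ipsilateral side it had 34.4 ± 2.86 and 31.9 ± 2.94 CPM, and the ranges overlapped. Counts cover the whole gene in all cells, and excision of the floxed exon was not analysed here. In the cKO contralateral group the libraries differed in non-neuronal markers: 12 bone, cartilage and tendon genes summed to 190.1 CPM in mouse 95 against 44.4 to 67.8 CPM in the others, and 4 muscle genes to 1475.7 CPM in mouse 100 against 4.22 to 53.9 CPM. Fibroblast genes summed to 947.7 to 2316.0 CPM there and to 815.3 to 1374.8 CPM in control contralateral libraries.

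As background, RUNX proteins bind DNA through a Runt domain and do so more tightly with CBFB, a partner that does not contact DNA itself. RUNX1 sets the identity of nonpeptidergic nociceptors, RUNX3 that of proprioceptors, and RUNX2 is best known from bone. ETV1, ETV4 and ETV5 form the PEA3 group of ETS factors, which act downstream of receptor tyrosine kinases, and ETV1 is needed for the connection of proprioceptors to motor neurons. MAF, a basic leucine zipper factor, and SHOX2, a homeodomain factor, act in neurons that detect touch.

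Promoter windows from RefSeq (build GRCm38.p6, from 250 bases before to 50 bases after a start) were held for 7 of the members, in 11 windows; Maf and Etv4 had none. The first 3 sequences below are shown because the distal windows of the Runx genes share an 18-base run, in capitals, with 2 copies of ACCACA, the reverse complement of the RUNX letters TGTGGT. This run was in 4 of 32851 windows, and the other window, of Gm16225, lies opposite Runx3 and holds the same site.
Runx1, chr16:92826025-92826054, minus strand, run from base 27 after the start: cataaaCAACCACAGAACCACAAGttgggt
Runx2, chr17:44814583-44814612, minus strand, run from base 22 after the start: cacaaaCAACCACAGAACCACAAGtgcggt
Runx3, chr4:135120503-135120532, plus strand, run from position -136: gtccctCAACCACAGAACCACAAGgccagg

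The next 4 sequences hold the ETS letters GGAAGT, in capitals, in windows of the members whose level differed most between the sides.
Etv1, chr12:38780067-38780096, plus strand, letters from position -3: gcgagttaggaaGGAAGTagtttccctcgg
Etv5, chr16:22438568-22438597, minus strand, letters from position -217: tgggaattgggtGGAAGTgtgtcttgtttt
Etv5, chr16:22438349-22438378, minus strand, letters from base 3 after the start: cgacgacacaaaGGAAGTggtttaaactcc
Shox2, chr3:66981962-66981991, minus strand, letters from position -208: ggcccgcctttaGGAAGTataaatagtgag
Over both strands, RUNX letters were in 4 of the 11 windows of the members and in 16.8% of all windows, and ETS letters in 4 of 11 and in 23.8%. The MAF half-site letters TGCTGA were in 3 of 11 windows against 19.5% of all. The letters TGANTCA (AP-1), TGACGTCA (CRE) and TNGCGTG (AhR) were in 0 of 11 windows, against 7.81%, 1.79% and 5.07% of all. A match of letters is a description of the sequence and shows no binding.

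Levels of the members were compared with each other as CPM per kilobase of merged exons (GENCODE M21). In control contralateral libraries Cbfb was highest, at 66.4 ± 2.7 CPM per kilobase (SD, n = 5), followed by Etv5 at 31.2 ± 2, Etv1 at 11.6 ± 1.04 and Maf at 9.41 ± 0.183. Runx1 (7.98 ± 0.4) and Shox2 (7.84 ± 0.704) were next, and their ranges overlapped. Runx3 (2.61 ± 0.306), Etv4 (1.04 ± 0.133) and Runx2 (0.674 ± 0.0318) were lowest. The level of Cbfb was thus above that of the 3 Runx genes in every library.

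**Figure D1:**
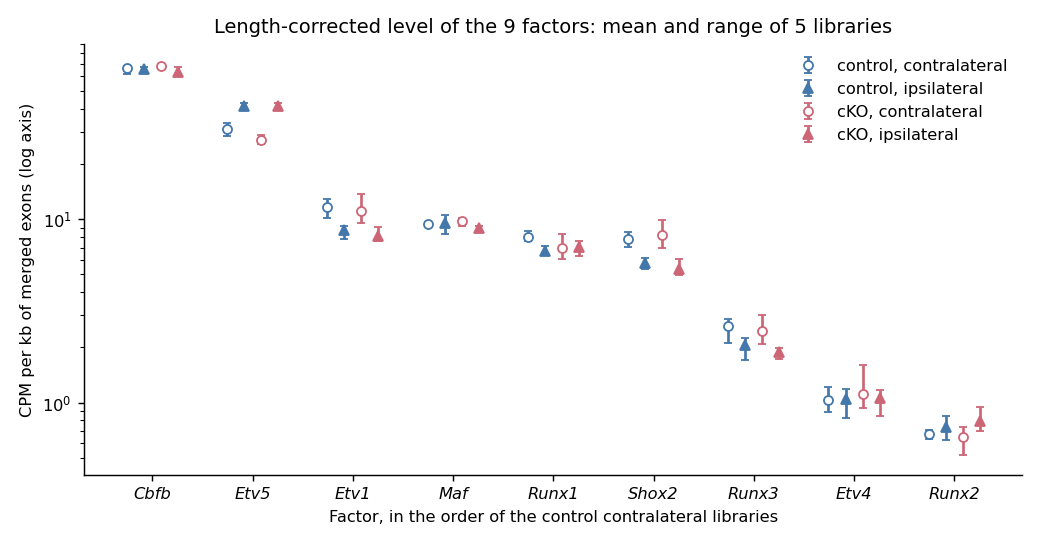
Level of each member per kilobase of merged exons (vertical log axis) in the 4 groups. Points are means and bars run from the lowest to the highest of 5 libraries; Cbfb and Etv5 stand above the other members in all groups, and Etv4 and Runx2 below them.

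Places changed only in the middle of the order. In cKO contralateral libraries Shox2 (8.17 ± 1.18 CPM per kilobase) stood above Runx1 (6.98 ± 0.848), with overlapping ranges. In both ipsilateral groups Maf (9.57 ± 0.961 in control and 8.93 ± 0.152 CPM per kilobase in cKO) stood above Etv1 (8.74 ± 0.535 and 8.11 ± 0.583), with overlapping ranges. Etv4 and Runx2 overlapped in both ipsilateral groups and not in the contralateral groups. The order depends on the gene length used: the deposited FPKM divide by the whole gene span, introns included, and with them 4 of 9 members kept their place in the control contralateral order, Maf moving to the second place and Shox2 to the third. Counts per library ran from 214 for Etv4 to 28101 for Cbfb, so that counting error was small for all but the lowest members.

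Nerve transection was asked first, as ipsilateral against contralateral ganglia. In control mice 4 of 9 members were called lower (Runx1, Runx3, Etv1 and Shox2; 16% of all tested genes were called lower) and 1 was called higher (Etv5; 13.8% of all were called higher). In cKO mice 4 members were called lower (Runx3, Cbfb, Etv1 and Shox2; 15.1% of all) and 2 higher (Runx2 and Etv5; 16.2% of all). The threshold for a call was an edgeR p of 0.05 after adjustment over all tested genes. Runx3, Etv1 and Shox2 were thus called lower and Etv5 higher in both genotypes, and Etv4 and Maf were called in neither. Of the 13 sensory neuron markers 5 were called lower and 0 higher in control mice (median -0.03), and 3 lower and 0 higher in cKO mice (median -0.09). In cKO mice 1 was called lower and 1 higher without mouse 99, and 2 lower without mouse 61, 64 or 96. With limma-voom 5 were called lower in cKO mice, and with log2 FPKM at either pseudocount 7 were. In control mice 4 were called lower and 2 higher without mouse 97. The part of these markers in the falls of the members was not tested.

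**Figure D2:**
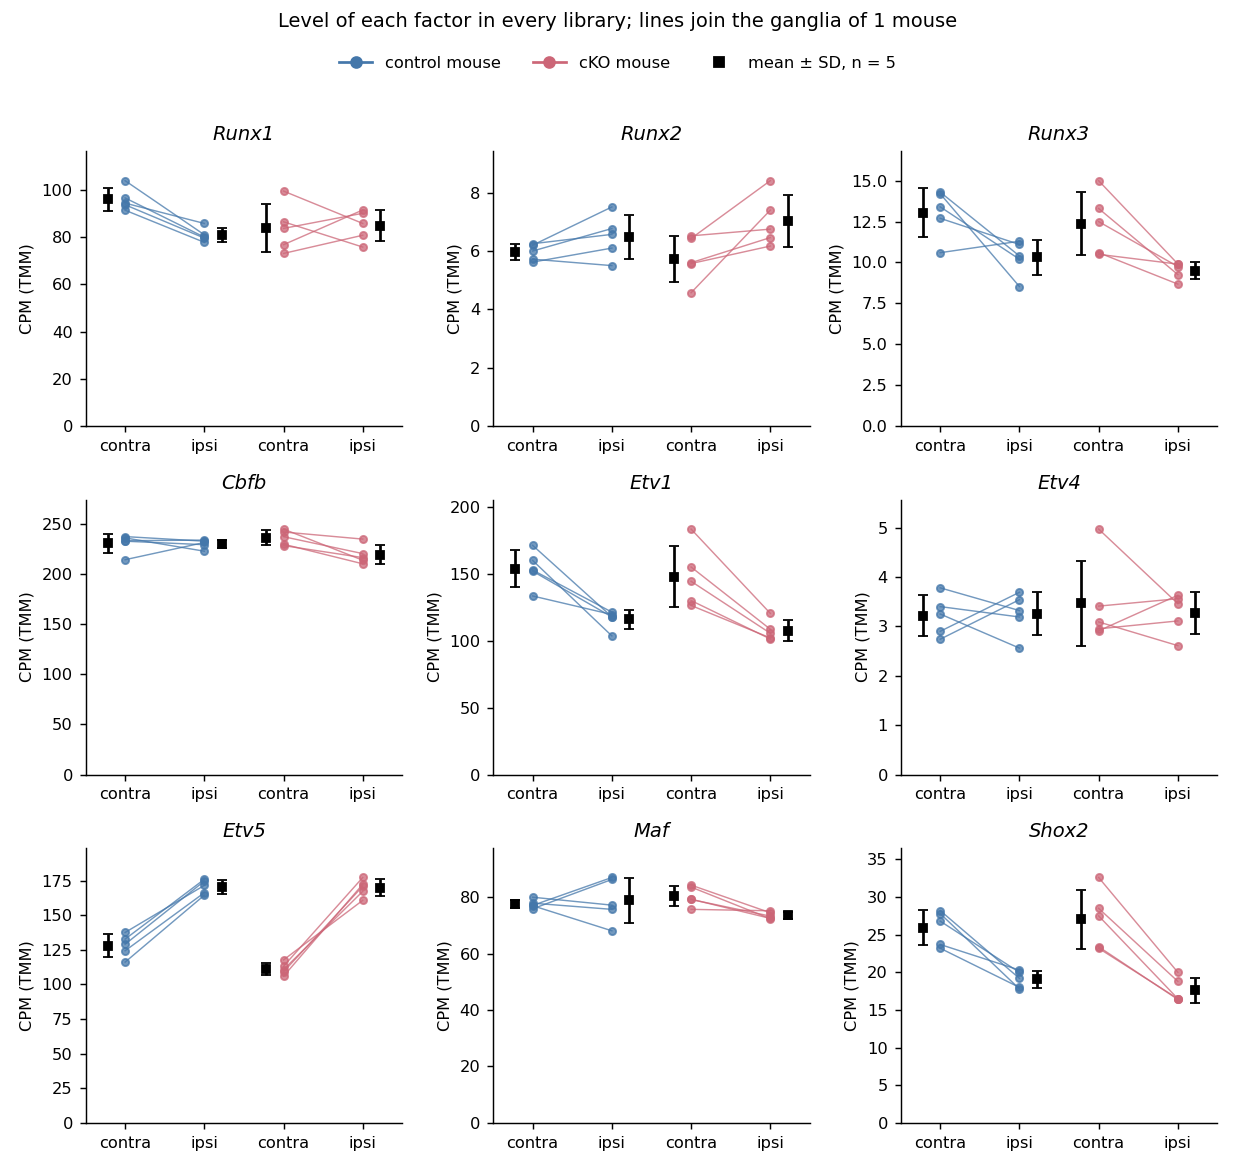
TMM-normalised CPM of the 9 members in all 20 libraries (vertical axes start at 0). Coloured points are libraries, lines join the contralateral and ipsilateral ganglia of 1 mouse, and black squares with bars are means ± SD of 5; Etv5 rose in all 10 mice and Etv1 and Shox2 fell in all 10.

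Runx1, the factor of nonpeptidergic nociceptors, had 91.4 to 103.9 CPM (median 94.4) in control contralateral and 77.8 to 85.8 CPM (median 80.0) in control ipsilateral libraries. The ranges did not overlap, and Runx1 fell in 5 of 5 control mice, by 15.8% on average (log2 fold change -0.25, SE 0.0658, adjusted p 0.00655). In cKO mice it had 86.5, 76.8, 73.1, 99.5 and 83.7 CPM contralaterally and 75.8, 91.5, 80.8, 85.8 and 90.1 CPM ipsilaterally (mice 61, 64, 95, 99 and 100). These ranges overlapped widely: Runx1 was higher on the injured side in 3 of 5 cKO mice and lower in 2, and the log2 fold change was 0.02 (adjusted p 0.898, 95% interval -0.11 to 0.14).

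Runx2, the lowest member per kilobase of exon, had 5.62 to 6.25 CPM (median 6.0) in control contralateral and 5.5 to 7.51 CPM (median 6.57) in control ipsilateral libraries, a log2 difference of 0.12 that was not called (adjusted p 0.386). In cKO mice it had 5.57, 6.43, 6.52, 5.6 and 4.57 CPM contralaterally and 6.17, 8.41, 6.75, 6.46 and 7.4 CPM ipsilaterally, in the same order of mice. It rose in 5 of 5 cKO mice, although the ranges of the sides overlapped (log2 fold change 0.30, adjusted p 0.0244). The call was lost without mouse 64 (0.27, adjusted p 0.0544) or mouse 100 (0.21, adjusted p 0.138), and the latter mouse had the lowest contralateral value. RUNX2 is a factor of bone-forming cells; the contralateral library richest in bone, cartilage and tendon markers, that of mouse 95, had the highest Runx2 of its group (6.52 CPM). The control contralateral library richest in them, that of mouse 62 (75.2 CPM), had 5.72 CPM of Runx2, the second lowest of its group. In cKO mice these markers summed to 79.4 ± 62.6 CPM contralaterally and 29.6 ± 2.67 CPM ipsilaterally (SD, n = 5), and to 51.7 ± 10.8 and 30.1 ± 2.79 CPM without mouse 95 (n = 4). Of the 12 genes 7 were called lower ipsilaterally, 3 with the replicate block or without mouse 95, 4 without mouse 61, 64 or 99, and 10 without mouse 62. Their part in the Runx2 values was not tested. Exons of Runx2 share 5.9% of their bases with Runx2os1 on the opposite strand, and the strand setting of the counting is not given in the sources used here.

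Runx3, the proprioceptor factor, had 10.6, 12.7, 14.2, 14.3 and 13.4 CPM in control contralateral and 11.3, 11.1, 8.53, 10.4 and 10.2 CPM in control ipsilateral libraries (mice 62, 63, 65, 96 and 97). Mouse 62, with the lowest contralateral value, went the other way: Runx3 fell in 4 of 5 control mice, by 21.0% on average (log2 fold change -0.34, adjusted p 0.0112). Leaving out mouse 65, 96 or 97 ended this call (log2 fold changes of -0.23, -0.30 and -0.31, adjusted p 0.0988, 0.0621 and 0.0517). In cKO mice Runx3 had 10.5 to 15.0 CPM (median 12.5) contralaterally and 8.68 to 9.91 CPM (median 9.75) ipsilaterally. There the ranges did not overlap, Runx3 fell in 5 of 5 mice, and the call held in all 20 alternatives (log2 fold change -0.38, SE 0.098, adjusted p 0.00486).

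Cbfb, the common partner of the RUNX proteins, had 214.7 CPM in mouse 62 and 233.2 to 237.8 CPM in the other control contralateral libraries, against 223.2 to 234.3 CPM in control ipsilateral libraries. The means differed by 0.3% and the log2 interval was -0.07 to 0.06. In cKO mice Cbfb had 228.8 to 245.3 CPM (median 237.7) contralaterally and 210.6 to 235.3 CPM (median 216.8) ipsilaterally. It fell in 5 of 5 cKO mice, by 7.3% on average, and the ranges overlapped through mouse 61 (log2 fold change -0.11, SE 0.0331, adjusted p 0.0146). This small difference was no longer called without mouse 95 (-0.11, adjusted p 0.0503) or mouse 100 (-0.09, adjusted p 0.0967).

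Etv1, the PEA3 factor of proprioceptors, had 133.7, 153.1, 160.3, 152.3 and 171.6 CPM in control contralateral and 119.8, 121.6, 103.8, 118.0 and 118.1 CPM in control ipsilateral libraries (mice 62, 63, 65, 96 and 97). All ipsilateral values were below all contralateral values, and the mean fell by 24.6% (log2 fold change -0.41, SE 0.0862, adjusted p 0.00116). In cKO mice it had 155.4, 144.7, 126.6, 183.8 and 130.3 CPM contralaterally and 108.8, 105.8, 102.3, 120.7 and 101.5 CPM ipsilaterally. The ranges again did not overlap, and the mean fell by 27.2% (log2 fold change -0.46, SE 0.0863, adjusted p 3.870e-04). Both calls held in all 20 alternatives.

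Etv5, a PEA3 factor that responds to growth factor signalling, was the member that rose in both genotypes. It had 137.5, 129.0, 132.7, 116.1 and 124.3 CPM in control contralateral and 171.5, 174.6, 175.9, 164.4 and 166.2 CPM in control ipsilateral libraries. In cKO mice it had 113.1, 110.7, 109.1, 117.7 and 105.9 CPM contralaterally and 177.2, 167.2, 170.9, 160.7 and 172.3 CPM ipsilaterally. The sides were separated in both genotypes. The mean was 33.3% higher in control (log2 fold change 0.41, SE 0.0399, adjusted p 7.372e-08) and 52.4% higher in cKO mice (0.61, SE 0.04, adjusted p 1.814e-10). The ipsilateral groups reached nearly the same mean, 170.5 ± 5.08 CPM in control and 169.7 ± 6.16 CPM in cKO, from contralateral means of 127.9 ± 8.2 and 111.3 ± 4.43 CPM.

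Etv4, the third PEA3 factor, had 2.56 to 4.97 CPM over the 20 libraries. Its group means lay between 3.22 and 3.47 CPM, and all 4 groups overlapped. The log2 differences between the sides were 0.02 in control and -0.08 in cKO mice, with wide intervals of -0.25 to 0.29 and -0.35 to 0.19, wide enough to hold a change of the size seen for Runx1 in control mice.

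Maf, a factor of touch neurons, had 75.9 to 80.0 CPM (median 77.1) in control contralateral and 68.1 to 87.0 CPM (median 77.2) in control ipsilateral libraries, with a log2 difference of 0.02. In cKO mice it had 75.7, 79.3, 83.6, 79.2 and 84.3 CPM contralaterally and 75.2, 72.5, 72.4, 73.3 and 74.5 CPM ipsilaterally. The cKO ranges did not overlap and Maf was lower on the injured side in 5 of 5 mice, by 8.5% on average. Its log2 difference of -0.13 (SE 0.049) had an adjusted p of 0.0518, just outside the threshold. It was called in 10 of 20 alternatives, among them the fits without mouse 61, 62, 65 or 96 (adjusted p 0.0405, 0.0396, 0.0222 and 0.0492).

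Shox2, the homeodomain factor, had 23.2, 23.7, 27.8, 26.8 and 28.2 CPM in control contralateral and 18.0, 20.3, 17.8, 20 and 19.2 CPM in control ipsilateral libraries. All ipsilateral values were lower, and the mean fell by 26.5% (log2 fold change -0.44, SE 0.0861, adjusted p 4.284e-04). In cKO mice it had 28.5, 27.5, 23.4, 32.6 and 23.2 CPM contralaterally and 18.8, 16.5, 16.4, 20 and 16.5 CPM ipsilaterally. This fall of 34.7% was the largest among the members in either genotype (log2 fold change -0.62, SE 0.0862, adjusted p 1.166e-05), and both calls held in all 20 alternatives.

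In the cKO contralateral group mouse 99 had the highest Runx1, Runx3, Etv1, Etv5 and Shox2 and the lowest Cbfb among 5 libraries. The same library had the lowest summed markers of macrophages (102.4 CPM), neutrophils (24.7 CPM), fibroblasts (947.7 CPM) and muscle (4.22 CPM), and the highest summed markers of sensory neurons (15461.6 CPM). In the control contralateral group mouse 62 had the lowest Runx3, Etv1, Shox2 and Cbfb, but the highest Etv5 (137.5 CPM). It also had the highest summed markers of neutrophils (148.7 CPM), fibroblasts (1374.8 CPM), muscle (301.3 CPM) and bone, cartilage and tendon (75.2 CPM). The part of these markers in the results was not tested. Without mouse 99 or without mouse 62 the calls of Etv1, Etv5 and Shox2 were kept in both genotypes.

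Genotype was compared next, as cKO against control on each side. On the contralateral side 0 of 9 members were called, where 0.0735% of all tested genes were (21 genes). That count depended on single mice and on the tool. Without mouse 99 it was 3326 genes (11.5%) and 2 of 9 members (Runx1 and Etv5), without mouse 61 it was 174 genes, and without each of the other mice 4 to 22. With DESeq2, 1 member was called (Etv5) among 1030 genes (4.7% of those with an adjusted p). On the ipsilateral side 0 of 9 were called, where 0.007% were (2 genes), and with DESeq2 again 0, where 0.0105% were (3 genes). At an unadjusted p under 0.05 there were 2 members contralaterally (Runx1 and Etv5), where 17.5% of all genes were, and 1 ipsilaterally (Cbfb), where 2.36% were.

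Etv5 was 13.0% lower in cKO than in control contralateral libraries (log2 difference -0.20, SE 0.0399), with an adjusted p of 0.0503. The ranges met only at their edge, the highest cKO library at 117.7 CPM and the lowest control library at 116.1 CPM. It passed in 6 of 19 alternatives: with DESeq2 (-0.19, adjusted p 0.00206), in both alternative filters, and without mouse 61, 96 or 99 (-0.21, -0.23 and -0.22, adjusted p 0.0411, 0.0208 and 0.00379). In the others it did not pass, and over all 19 the log2 difference ran from -0.23 to -0.12 and the adjusted p up to 0.384. The two-sided exact permutation test of 5 against 5 mice gave p 0.0159, which became 0.214 when adjusted over the 27 tests of 9 members. Mice fell into 2 ranges of numbers, 61 to 65 and 95 to 100, and the log2 difference was -0.25 within the first and -0.12 within the second. On the ipsilateral side the difference was -0.01, with an interval of -0.09 to 0.07.

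Runx1 was 12.6% lower in cKO than in control contralateral libraries (log2 difference -0.19, adjusted p 0.147; exact permutation p 0.0476, adjusted 0.257). In 4 of 5 cKO mice it was below all control libraries, and mouse 99, at 99.5 CPM, was above 4 of the 5 control libraries. Without that mouse the log2 difference was -0.26 with an adjusted p of 0.00942, in the fit that called 11.5% of all genes; it was called in no other of the 19 alternatives. The differences within the ranges of mouse numbers were -0.20 and -0.22. Ipsilaterally Runx1 was 4.9% higher in cKO (0.07, interval -0.06 to 0.20). The other 7 members differed by -0.08 to 0.11 on the log2 scale contralaterally and by -0.12 to 0.12 ipsilaterally, and none was called.

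**Figure D3:**
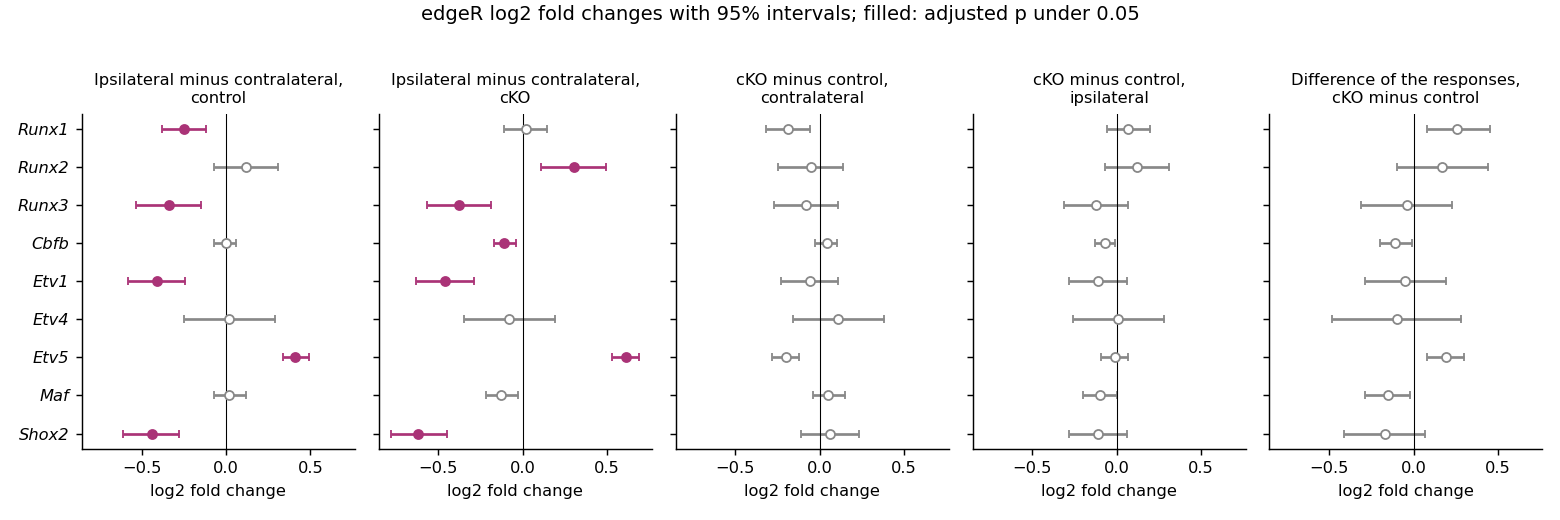
edgeR log2 fold changes (horizontal axes) with 95% intervals of the 9 members in the 5 comparisons. Filled points had an adjusted p under 0.05; they are found only in the 2 comparisons of the sides.

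Whether the injury response itself differed between genotypes was asked by the interaction. No member was called, nor was any of the 28564 genes (0%). At an unadjusted edgeR p under 0.05 there were 4 members (Runx1, Cbfb, Etv5 and Maf), where 9.8% of all genes were (2799 genes). Without mouse 99, 43 genes were called, and with DESeq2 11, with 0 members among them in both. The responses are computed from the same contralateral libraries as the genotype comparison above. Per mouse, the log2 response of Etv5 averaged 0.42 ± 0.0659 in controls (SD, n = 5) and 0.61 ± 0.0969 with the knockout. The difference was 0.19 (edgeR SE 0.0563, interval 0.08 to 0.30, adjusted p 0.485). The exact permutation p was 0.0159 and 0.214 after adjustment over the 27 tests. The highest control response (0.50) lay above the lowest cKO response (0.45).

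The response of Runx1 was -0.25 ± 0.0797 in control and 0.02 ± 0.209 in cKO mice. Control mice ranged from -0.36 to -0.14 and cKO mice from -0.21 to 0.25, so the groups overlapped. The difference was 0.26 in edgeR (interval 0.08 to 0.45, adjusted p 0.485), with an exact permutation p of 0.0397 (adjusted 0.257). Thus the fall of Runx1, called in control and not in cKO mice, was not shown to differ between genotypes. The same holds for Cbfb (difference -0.11, interval -0.20 to -0.01, adjusted p 0.498) and Runx2 (0.17, interval -0.10 to 0.44, adjusted p 0.682). The exact permutation p of Cbfb was 0.0238, adjusted 0.214.

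The response of Maf differed by -0.15 (interval -0.29 to -0.02), which excludes 0 but had an adjusted p of 0.503. The difference was -0.17 for Shox2, -0.10 for Etv4, -0.05 for Etv1 and -0.04 for Runx3, with adjusted p of 0.637 to 0.942. The interval of Shox2 was -0.41 to 0.07, and that of Runx3 -0.31 to 0.23, so a difference as large as the fall of Runx1 in control mice was inside both.

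Genes on which these factors are known to act, or which mark the neurons they specify, were then counted. The counts of each list are to be read against the shares over all tested genes, 13.8% called higher and 16% lower in control mice and 16.2% and 15.1% in cKO mice. Of 14 genes that need RUNX1 or mark nonpeptidergic nociceptors, 8 were called lower and 1 higher after transection in control mice. The median log2 fold change was -0.29 against 0.00 over all tested genes. Mrgprx1, an itch receptor, fell from 26.5 ± 2.78 to 16.6 ± 1.5 CPM (log2 fold change -0.67). Mrgpra3 (-0.62), another itch receptor, and Mrgprb5 (-0.71) also fell. Ret, the receptor tyrosine kinase for GDNF ligands, was the gene called higher, from 914.0 ± 35 to 1039.0 ± 45.3 CPM (0.18, adjusted p 0.0222), a call lost without mouse 62, 63 or 65 (0.18 each, adjusted p 0.0674, 0.0589 and 0.0572).

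In cKO mice 7 of the 14 were called lower and 4 higher (median -0.16 against -0.03 over all genes). Without mouse 61, 64 or 99, 4 were called lower. Mrgprx1 fell by 0.53 on the log2 scale, while Ret rose by 0.36, Trpa1, the irritant channel, by 0.23 and P2rx3, an ATP-gated channel, by 0.24. Contralaterally the median of the list in cKO against control was -0.21 (all genes -0.01), with 13 of 14 genes below 0 where 54.2% of all genes were, and 0 of 14 were called. Without mouse 99, 10 of the 14 were called lower, where 6.52% of all genes were, and with DESeq2 5 were. For the interaction 14 of 14 were above 0 (median 0.26, all genes 0.01), and 0 were called. Several marker lists of other cells lay on the opposite side of 0 in both comparisons. Contralaterally 8 of 8 fibroblast genes (median 0.89), 12 of 12 of bone, cartilage and tendon (0.94), 12 of 12 of macrophages (0.32) and 7 of 7 of endothelium (0.17) were above 0. For the interaction none of these 4 lists had a gene above 0 (medians from -1.92 for bone, cartilage and tendon to -0.33 for endothelium). All genes of the neutrophil (medians 0.77 and -0.69), erythroid (0.45 and -0.45) and muscle (1.52 and -4.01) lists also lay above 0 contralaterally and below 0 in the interaction. Lymphocyte genes did not share this: 7 of 8 were below 0 contralaterally (median -0.48) and 4 of 8 in the interaction. Schwann cell and satellite glia genes had contralateral medians of -0.03 and 0.06. In the interaction 8 of 8 and 6 of 7 of them were below 0 (medians -0.08 and -0.15). No marker was called in either comparison; without mouse 99, 4 fibroblast genes were called higher and 5 sensory neuron genes lower contralaterally, and with DESeq2 4 fibroblast genes higher and 1 satellite glia gene lower. In both of these fits 2 bone, cartilage and tendon genes were called higher, and without mouse 61 1 of them and 1 fibroblast gene were. The part of these cells in the nociceptor values was not tested. These comparisons share the contralateral libraries, and Runx1 itself had -0.19 and 0.26 in them, neither of which was called.

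Of 7 proprioceptor genes, 2 were called lower and 2 higher in control mice, and 3 lower and 1 higher in cKO mice. The nuclear receptor gene Esrrg fell from 43.4 ± 2.73 to 28.2 ± 2.59 CPM in controls (log2 fold change -0.62) and, with the knockout, from 43.6 ± 8.02 to 24.9 ± 3.76 CPM (-0.81), and the scaffold gene Whrn fell by 0.52 and 0.62. Pvalb, the calcium-binding protein gene that marks proprioceptors, was the other gene called lower in cKO mice (-0.48, adjusted p 0.0472), a call lost in 15 of 20 alternatives, among them the replicate block (-0.42, adjusted p 0.0532) and the fit without mouse 100 (-0.25, adjusted p 0.153). Heg1, the gene called higher in cKO mice (0.20), lost its call when mouse 61, 63, 64, 65, 95, 97, 99 or 100 was left out (adjusted p 0.0501 to 0.118). Spp1, which encodes osteopontin, rose by 0.42 in control mice and differed by 0.14 in cKO mice (adjusted p 0.0918). Genes of this list thus went both ways, with a median of 0.04 in control and -0.07 in cKO mice, and Runx3 and Etv1 were called lower beside Esrrg and Whrn.

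Of 11 genes of low-threshold mechanoreceptors, the neurons of touch, 6 were called lower and 0 higher in control mice (median -0.36), and 3 lower and 0 higher in cKO mice (median -0.10). Mafa, a MAF family member of touch neurons, fell from 14.3 ± 0.569 to 8.9 ± 0.646 CPM in controls (-0.68) and, with the knockout, from 13.9 ± 2.02 to 7.84 ± 0.841 CPM (-0.83). The potassium channel gene Kcnh5 fell by 0.44 and 0.56, and the calcium-binding protein gene Necab2 by 0.45 and 0.28. Shox2 was thus called lower beside Mafa in both genotypes, while Maf was not called. Among 7 peptidergic nociceptor genes 1 was called higher and 1 lower in control mice, and 1 higher and 2 lower in cKO mice. Adcyap1, which encodes the neuropeptide PACAP, rose by 1.77 and 1.70, and Kit, the stem cell factor receptor, fell by 0.37 and 0.26, the latter call being lost without mouse 95 (-0.20, adjusted p 0.0872). Calca, which encodes the neuropeptide CGRP, was the other gene called lower in cKO mice (-0.14), and lost its call without mouse 64, 95 or 100 (adjusted p 0.134, 0.12 and 0.0919), so that without mouse 95 the count was 0.

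**Figure D4:**
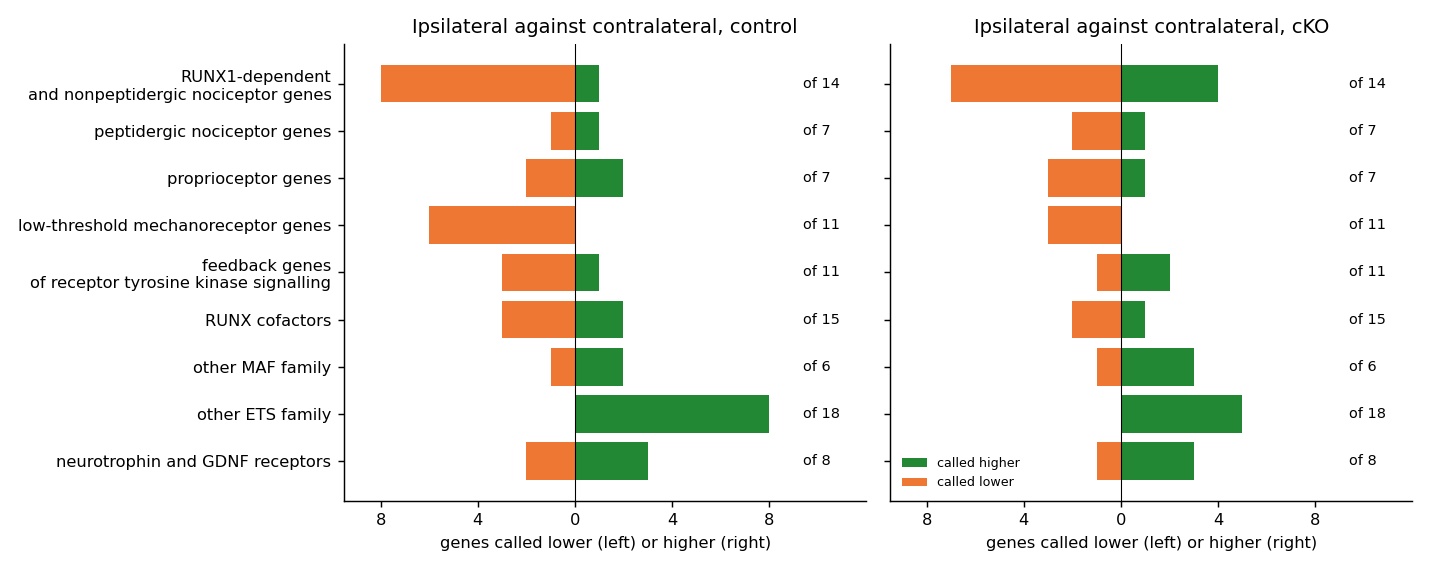
Number of genes of 9 lists called higher (to the right) or lower (to the left) on the ipsilateral side in control mice (left panel) and cKO mice (right panel), with the number tested at the right. In control mice 8 of 14 RUNX1-dependent and nonpeptidergic nociceptor genes were called lower and 8 of 18 other ETS family genes higher.

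Relatives and partners of the members were counted in the same way. Of 18 other ETS family genes tested, 8 were called higher and 0 lower in control mice, and 5 higher and 0 lower in cKO mice (medians 0.12 and 0.09). Ets2 rose from 25.7 ± 1.16 to 53.7 ± 2.56 CPM in controls and, with the knockout, from 25.8 ± 1.39 to 55.1 ± 2.6 CPM (log2 fold changes 1.06 and 1.10). The repressor gene Erf rose by 0.57 and 0.54, and Etv6, another repressor, by 0.44 and 0.50. Etv5 rose together with Ets2, Erf and Etv6 while Etv1 fell. Some markers of other cell types were also above 0 after transection in control mice. For endothelium 7 of 7 were (median 0.40), with 3 called higher, 5 with the replicate block or limma-voom and 1 without mouse 96 or 97. For macrophages 12 of 12 were (0.46), with 1 called higher, 0 without mouse 63, 96 or 97 and 2 with the replicate block or without mouse 99. All genes of fibroblasts (0.34), neutrophils (0.61) and muscle (0.61) were also above 0. Of these, 0 were called in the main fit and up to 2 fibroblast genes in alternatives. In cKO mice the medians were 0.03 for endothelium and 0.17 for macrophages, with 0 called. They were -0.65 for fibroblasts, -0.10 for neutrophils and -3.48 for muscle. Of these, 1 fibroblast gene was called lower, a call lost without mouse 61 or 64. Erg, a factor of endothelial cells, had -0.26 in cKO mice (adjusted p 0.169). Of 7 satellite glia genes 2 were called higher in both genotypes, Glul (0.46 and 0.30) and Kcnj10 (0.30 and 0.25, the latter call lost without mouse 61 or 100), with list medians of 0.12 and -0.01. Of 8 lymphocyte genes 7 were below 0 in both (medians -0.24 and -0.34), with 0 called. The part of these cells in the ETS counts was not tested. Erg and Elf4, also called higher in control mice (0.51 and 0.68), lost the call without mouse 96 (Erg 0.41, adjusted p 0.0547) or without mouse 63, 65 or 97 (Elf4 0.61, 0.64 and 0.56, adjusted p 0.0881, 0.0723 and 0.122). Elf1, another of those called, lost its call without mouse 61, 63, 64, 65 or 97 (adjusted p 0.054 to 0.158). Over 20 alternatives the number of ETS genes called higher in control mice ran from 5 to 9.

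Of 6 other MAF family genes, 2 were called higher and 1 lower in control mice, and 3 higher and 1 lower in cKO mice. The small MAF genes Mafk (0.72 and 0.78) and Maff (0.38 and 0.58) rose, and Mafa was the gene that fell. Of 15 RUNX cofactors, 2 were called higher and 3 lower in control mice, and 1 higher and 2 lower in cKO mice. The corepressor gene Tle3 rose from 47.6 ± 1.78 to 79 ± 4.47 CPM in controls and, with the knockout, from 47.2 ± 2.71 to 78.6 ± 4.65 CPM (0.73 in both), while Tle1 fell by 0.28 and 0.14. The latter call was lost without mouse 64 (-0.12, adjusted p 0.0592) or 99 (-0.10, adjusted p 0.0885). Aes, the other cofactor gene called lower in cKO mice (-0.11), lost its call without mouse 64 or 95 (adjusted p 0.0641 and 0.067). The count of 2 became 1 without mouse 64, another cofactor gene then being called, 1 without mouse 95, and 0 with only the libraries compared.

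Receptor and feedback genes of the pathway in which PEA3 factors act were mixed. Of 8 neurotrophin and GDNF receptor genes, 3 were called higher and 2 lower in control mice, and 3 higher and 1 lower in cKO mice. Without mouse 62 the 3 higher in control mice became 1, since Ret and Gfra3 (0.24, adjusted p 0.0795), the artemin co-receptor gene, lost their calls. Ngfr, 1 of the 2 lower, had a log2 fold change of -0.10 (adjusted p 0.045) and lost its call in 12 of 20 alternatives. Gfra1, a GDNF co-receptor, rose from 180.3 ± 10.1 to 381.3 ± 18.6 CPM in controls and, with the knockout, from 165.3 ± 11.2 to 387.0 ± 21.4 CPM (1.08 and 1.23), and Gfra2, the co-receptor for neurturin, fell by 0.59 and 0.29. The latter call of Gfra2 was lost without mouse 61 (-0.26, adjusted p 0.0778). Of 11 feedback genes of receptor tyrosine kinase signalling, 1 was called higher and 3 lower in control mice, and 2 higher and 1 lower in cKO mice, with medians of 0.02 and -0.06. With the replicate block 5 were called lower in control mice and 3 in cKO mice. Phlda1 rose by 1.45 and 1.50, and Spry4 fell by 0.49 in control mice and differed by -0.28 in cKO mice (adjusted p 0.0597). Spry2 rose by 0.29 in cKO mice. In the genotype comparisons and the interaction 0 genes of these 9 lists were called. On the contralateral side this changed in some alternatives. Without mouse 99, 10 RUNX1-dependent and nonpeptidergic nociceptor genes were called lower in cKO mice, as given above. So were 5 low-threshold mechanoreceptor genes, 4 receptor genes, 3 feedback genes, 2 RUNX cofactors and 1 MAF gene. Called higher were 2 RUNX cofactors and 1 ETS gene. With DESeq2, besides the 5 RUNX1-dependent and nonpeptidergic nociceptor genes, 3 feedback genes and 1 receptor gene were called lower. Called higher were 1 proprioceptor and 1 ETS gene. The other calls were of 1 ETS gene, higher without mouse 61 or 62 and with a mean of at least 1 CPM. For the ipsilateral side and the interaction the count stayed at 0 in all 19 alternatives.

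For each member called in at least 1 comparison, the 3 genes with the most similar pattern were found among 14228 named genes whose mean reached 1 CPM. The measure was the root mean square difference of log2 CPM over the 20 libraries, each gene centred on its own mean. The gene nearest to Runx3 was Etv1 (0.0893, against a median of 0.258 over all genes), followed by Asic1 (0.0894) and Rgs6 (0.0984). Rgs6 was also among the nearest of Etv1 (0.0641), after Sema7a (0.0599) and Pcdh7 (0.0616). Nearest to Shox2 were Ndst4 (0.0787), Kcns1 (0.0836) and Whrn (0.0862), and nearest to Etv5 were Tmem79 (0.0563), Hs2st1 (0.0667) and Arrb1 (0.071).

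The pattern of Runx1 was most like those of Nedd4l (0.0541), Colgalt2 (0.0544) and Jhy (0.0545), which had log2 fold changes of -0.21, -0.20 and -0.24 after transection in control mice and 0.02, -0.03 and -0.02 in cKO mice. Cbfb lay nearest to Tagln3 (0.037), Tspan3 (0.0378) and Nptn (0.038), and Runx2 to Fam129a (0.105), Ccdc57 (0.111) and Rbmx (0.112). All these distances are descriptions over libraries that share mice and depth.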

How the data were processed

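Exonic counts per gene were deposited by the authors as whole numbers without normalization. The deposited FPKM were tested on the counts: in all 21541 genes with at least 1000 counts they equalled CPM over 1 length per gene (within 1%), and for 93.0% of genes that length and the span of the gene, introns included, differed by under 5%. They served only as an alternative. HISAT2, Picard and the builds mm10 and mm39 are named in the submitters' processing notes, without roles; the counting program and its strand setting are not given in the sources used here. Libraries came from a stranded mRNA kit with paired 150 bp reads, per the labels' protocols. One label field names a spinal cord injury, and 1 title gives a shortened mouse number; the protocol and the library names were followed.

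Symbols came from GENCODE M21 (51487 of 78258 identifiers). The tests on counts used edgeR 4.0.16 in R 4.3.3 (filterByExpr, TMM, robust quasi-likelihood test, 1 fit of 20 libraries, Benjamini-Hochberg adjustment over 28564 genes), checked on simulated data. Exact permutation tests were two-sided with a smallest p of 0.00794. The edgeR SE was derived from the test, as the absolute log2 fold change over the square root of its F value. The 95% intervals are normal intervals from this SE and are slightly narrower than the F-test itself would give. CPM are TMM-normalised and log2 CPM have a prior count of 2. In all 40 pairs of replicates the counts differed beyond counting error (chi-square over its degrees of freedom at least 5.5), and the spread between mice limited the precision.

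The 2 libraries of a mouse are paired by animal; the correlation of their deviations across genes had a median of 0.186 (-0.0546 to 0.361 in 10 mice). Alternatives were DESeq2 1.42.0, limma-voom (limma 3.58.1), RLE factors, 2 other filters, the replicate block, the range of mouse numbers, only the libraries compared, log2 FPKM with a pseudocount of 1 or 0.1, and leaving out each mouse. Members, lists and tests were chosen with earlier results of these data known. Named genes were the members, Ahr, up to 4 called genes with the largest log2 fold change per list and comparison (mean of at least 1 CPM), and the 3 nearest patterns. P2rx3, Trpa1 and, in control mice, Elf1 and Etv6 were chosen after their values were seen. One gene that the rule names is not reported here, and some others that it names stand only in the counts. Opposite-strand genes share 0.9% (Runx1), 4.6% (Shox2), 5.3% (Maf) and 5.9% (Runx2) of the exon bases of these members.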

Additional observations from a re-analysis of the deposited data

Results flagged for a closer look

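In 54 groups of 5 values (the levels of the 9 members in 4 groups and their responses in 2 genotypes), 3 held a library that stood far from the other 4, where chance gives about 2.7. Cbfb had 214.7 CPM in the control contralateral library of mouse 62, and the gap to the next library took 0.801 of the range. Etv1 had 103.8 CPM in the control ipsilateral library of mouse 65 (0.799). Etv4 had 4.97 CPM in the cKO contralateral library of mouse 64 (0.755), which also had the highest summed fibroblast markers of its group, 2316.0 CPM.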

How the results depend on the processing

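Over 20 alternatives for each comparison of the sides, 97 of 100 values of the 5 members called in control mice and 111 of 120 of the 6 called in cKO mice stayed on their side of the threshold, and 0 changed direction. The calls lost were those of Runx3 in control mice, without mouse 65, 96 or 97, and of Runx2 and Cbfb in cKO mice. Runx2 was lost with only the libraries compared (0.31, adjusted p 0.0503), with log2 FPKM and a pseudocount of 1 or 0.1 (0.01 and 0.04, scales on which low genes shrink), and without mouse 64 or 100; Cbfb without a filter (-0.09, adjusted p 0.0696), with only the libraries compared (-0.09, adjusted p 0.0973), and without mouse 95 or 100. With the replicate block 5 members were called in control mice, 6 in cKO mice and 0 for the interaction, and no call of a member changed; of the listed genes, Trpm8 and Elf1 lost their calls under the block in control mice (adjusted p 0.0516 and 0.051; 2 of 43 called) and Trpm8 and Pvalb in cKO mice (0.0568 and 0.0532; 2 of 37), while the feedback genes called lower went from 3 to 5 and from 1 to 3. The number of members called contralaterally between genotypes, 0 as reported, was 1 with DESeq2, with no filter and with a mean of at least 1 CPM, and 0 to 2 when a mouse was left out. Log2 FPKM with a pseudocount of 1 kept the calls but shrank the values of Runx1 in control mice (-0.07), Runx3 (-0.06 in both genotypes) and Etv1 (-0.25 and -0.28). On deposited FPKM 4 of 9 members kept their place in the order of levels. Without TMM all 36 group means stayed within 1 SD. Values of members that were not called changed sign in 41 of 653 cases, the cause of which was not tested.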
